A study of Caenorhabditis elegans with 2 samples.

Results

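Secretory pathway genes of *Caenorhabditis elegans* were examined for binding of the K12H6.12 protein at their promoters. They are the protein-coding genes of Ensembl release 115 whose names start with sec-, trap-, tram-, spcs-, sar-, copa-, copb-, copd-, cope-, copg- or copz-, which gave 35 of the 19973 protein-coding genes on the nuclear chromosomes. By role, 12 belong to the translocon and signal peptidase (called translocon genes here), 7 to the COPI coat, 8 to the COPII coat and its assembly factors, and 6 to the exocyst. The remaining 2, *sec-20* and *sec-22*, encode SNARE proteins, so the name rule reaches past translocon and coat genes.

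Chromatin was taken from whole young adults, 72 hours old and of mixed sex, of strain OP214. This strain carries the *unc-119*(ed3) III allele and the transgene wgIs214, from which K12H6.12 is made with GFP and FLAG at its C-terminus; worms had been synchronised by starving L1 larvae obtained by bleaching. Sonicated chromatin was precipitated with an antibody against GFP and sequenced in 1 group of 2 biological replicates, numbered 2 and 3, with no second strain, stage or condition. Signal therefore averages over all cells that make the tagged protein, and any difference between binding in a few cells and weak binding in many cannot be told apart.

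Proteins bound for the cell surface, for secretion or for most membranes enter the endoplasmic reticulum through the Sec61 channel, which the TRAP complex and TRAM assist while signal peptidase cuts off the leader peptide. COPII coats then bud vesicles from the endoplasmic reticulum towards the Golgi, COPI coats carry material back and between Golgi cisternae, and the exocyst tethers secretory vesicles to the plasma membrane. When unfolded proteins build up, the sensors IRE-1, PEK-1 and ATF-6 start the unfolded protein response, and the spliced form of the transcription factor XBP-1 raises many genes of this pathway.

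Each deposited peak list gives a peak's signal on the caller's own scale and the position of its summit. A gene's promoter window reaches 1000 bp before and 200 bp past the annotated 5' end, and the gene was counted when this window held a summit. The signal given for a gene is that of the strongest summit in its window in each list. Values of a gene from different lists can therefore come from different peaks. The replicate 2 list holds 27073 peaks and the replicate 3 list 30000. The IDR list (irreproducible discovery rate, a measure of agreement between replicates) holds 2268 peaks, and they are the 2268 peaks of highest signal in the pooled list of 30000, so these lists are not independent. Summits in the IDR list fell in the promoter windows of 15 of the 35 genes (42.9%), against 7.10% of all protein-coding genes. Among these 15 genes stood *sec-61.A*, *sec-61.B* and *sec-61.G*, which together encode the 3 subunits of the channel.

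The sequence under the summit is shown for the loci on which the following results turn, as 101 bases centred on the pooled summit, written 5' to 3' on the strand of the named gene in build ce11. Capitals mark the word CTGCGTC, the repeat GAGAGA or the core ACGTG, each on either strand. The strongest locus, between *trap-3* and *sec-61.B*, lies at chrIV:2389077-2389177 on the plus strand of *trap-3*, followed by *sec-61.G* at chrV:10897286-10897386 on the minus strand and *trap-2* at chrX:768215-768315 on the minus strand. The windows of *tram-1* (chrIV:10222192-10222292, minus) and *sec-24.1* (chrIV:11566292-11566392, minus) are shown because they share CTGCGTC with *sec-61.G*. The window of *sec-16A.2* (chrX:8286902-8287002, plus) is shown for its pair of GAGAGA sites, and that of *sar-1* (chrIV:4513600-4513700, minus) because no other member's summit window held ACGTG. In *sec-61.G* the CTGCGTC site overlaps a GAGAGA site on the opposite strand. The windows of *trap-3* and *trap-2* held none of the marked sites.
trap-3: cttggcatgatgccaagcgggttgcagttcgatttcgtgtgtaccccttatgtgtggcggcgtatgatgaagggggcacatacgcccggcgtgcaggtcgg
sec-61.G: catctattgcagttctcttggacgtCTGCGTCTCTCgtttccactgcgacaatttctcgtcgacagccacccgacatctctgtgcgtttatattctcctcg
trap-2: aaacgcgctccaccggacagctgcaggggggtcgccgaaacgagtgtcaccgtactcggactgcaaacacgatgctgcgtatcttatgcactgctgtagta
tram-1: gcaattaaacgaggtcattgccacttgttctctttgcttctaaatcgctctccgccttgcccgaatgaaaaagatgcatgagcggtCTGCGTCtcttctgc
sec-24.1: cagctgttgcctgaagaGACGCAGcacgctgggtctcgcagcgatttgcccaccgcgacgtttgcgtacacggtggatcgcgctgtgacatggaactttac
sec-16A.2: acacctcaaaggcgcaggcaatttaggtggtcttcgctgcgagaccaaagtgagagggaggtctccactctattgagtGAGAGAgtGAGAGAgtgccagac
sar-1: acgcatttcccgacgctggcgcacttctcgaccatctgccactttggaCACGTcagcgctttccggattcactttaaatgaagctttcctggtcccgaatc

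The translocon genes had the highest share, with 8 of 12 (66.7%) holding an IDR summit in the promoter window, against 2 of 7 COPI genes (28.6%), 3 of 8 COPII genes (37.5%), 2 of 6 exocyst genes (33.3%) and 0 of the 2 SNARE genes. These are counts of named genes in 1 group of samples, and the differences between the classes were not tested. The median signal of the strongest IDR summit was 295.2 over the 8 translocon genes, 126.3 over the 2 COPI genes, 112.1 over the 3 COPII genes and 286.8 over the 2 exocyst genes. Over all 1418 coding genes with an IDR promoter summit the median was 152.7. The translocon and exocyst medians thus lay above it and both coat medians below it, although sec-61.B and trap-3 enter the translocon median with 1 shared peak.

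In the pooled list 27 of the 35 genes (77.1%) held a promoter summit, against 35.3% of all coding genes, with 11 of 12 translocon, 5 of 7 COPI, 7 of 8 COPII and 3 of 6 exocyst genes. In the replicate 2 list 26 members (74.3%) did so, against 33.3% of coding genes, and in the replicate 3 list 25 (71.4%), against 36.3%. By class, replicate 2 gave 10 of 12 translocon, 5 of 7 COPI, 6 of 8 COPII and 4 of 6 exocyst genes, and replicate 3 gave 11, 4, 7 and 2. The share of translocon genes was above that of COPI and exocyst genes in each of the 4 lists. COPII genes came near the translocon genes in the pooled and replicate 3 lists, where 7 of 8 (87.5%) and 11 of 12 (91.7%) held a summit.

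**Figure D1:**
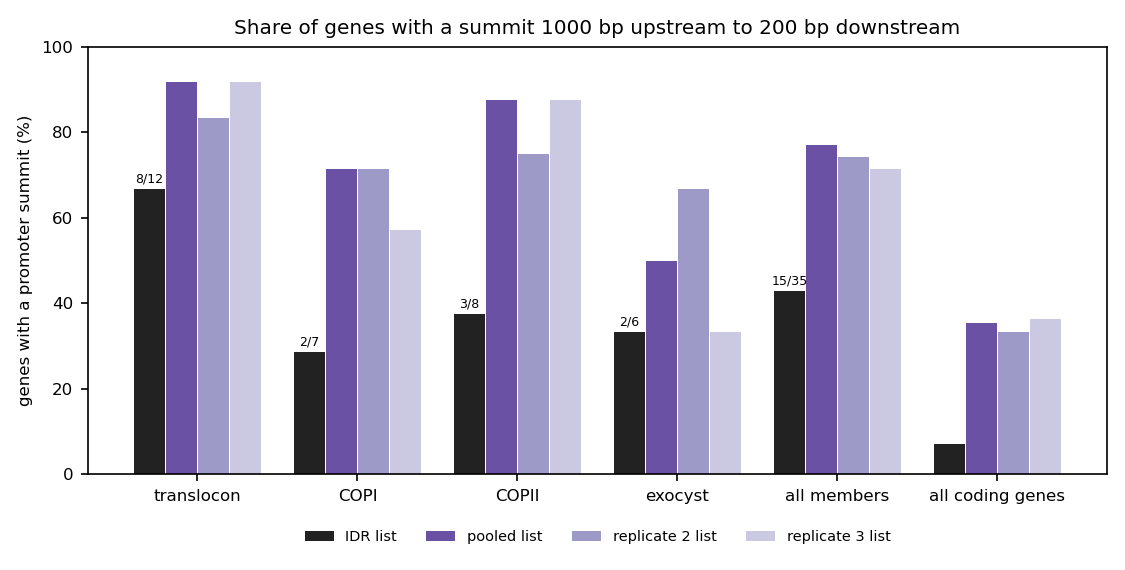
Percentage of genes with a peak summit in the promoter window, by gene class and peak list; numbers over the IDR bars give genes with a summit over genes in the class. Translocon genes reach 66.7% in the IDR list and all coding genes 7.10%.

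Of the channel subunits, *sec-61.B* and *sec-61.G* were bound most strongly. The gene for the beta subunit, *sec-61.B*, shares its only IDR peak with *trap-3*, which encodes a subunit of the TRAP complex and is transcribed away from it. The summit lies 452 bp upstream of *sec-61.B* and 318 bp upstream of *trap-3*, inside the non-coding RNA gene Y38F2AR.17, and the annotated genes leave 769 bp between them. Its signal was 451.2 in the pooled list (rank 53 of 30000), 207.3 in replicate 2 (rank 110) and 239.6 in replicate 3 (rank 34). *sec-61.G*, for the gamma subunit, had 433.8 in the pooled list (rank 60), 216.8 in replicate 2 (rank 96) and 200.6 in replicate 3 (rank 62), with the pooled summit 193 bp upstream. The replicates placed the *sec-61.G* summit at 193 and 191 bp upstream, and both loci ranked among the strongest peaks of each replicate.

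The gene for the pore-forming alpha subunit, *sec-61.A*, had a weaker peak at another kind of position. Its pooled signal was 197.9 (rank 585), with 123 in replicate 2 (rank 490) and 76.99 in replicate 3 (rank 871). Here the summit lay 135 bp downstream of the annotated 5' end, in the 5' untranslated exon of *sec-61.A*, and it was the only one of the 15 to lie downstream. Both replicates put it at 127 bp downstream. The same summit is 550 bp upstream of *rps-18*, a ribosomal protein gene that is transcribed away from *sec-61.A*. At 27.7% G+C, its 101 bases were the poorest in G+C of the 14 distinct members' summits, whose median was 52%.

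TRAP genes ranged widely. *trap-2* had a pooled signal of 392.5 (rank 90), with 203 in replicate 2 (rank 117) and 186.2 in replicate 3 (rank 84), 196 bp upstream of the gene. That summit is also 331 bp upstream of *ile-2*, which encodes a lectin-like cargo receptor and is transcribed in the other direction. *trap-1* had 126.1 in the pooled list (rank 1452), 76.74 in replicate 2 (rank 1306) and 48.89 in replicate 3 (rank 2251), 229 bp upstream. *trap-4* was not in the IDR list, with 48.69 in the pooled list (rank 8546), 38.38 in replicate 2 and 18.99 in replicate 3. The replicate 3 value is of another summit, 641 bp upstream, while the pooled and replicate 2 summits lay 141 and 172 bp upstream. The replicate 3 peak that covered the pooled summit had 16.39. The lowest signal of any IDR peak was 97.88, so *trap-4* fell well short of that list while its partner *trap-3* was near the top.

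*tram-1*, whose mammalian counterpart helps membrane proteins insert at the channel, had a pooled signal of 197.1 (rank 595) at 955 bp upstream, close to the edge of the window. The replicate 3 summit had 68.35 (rank 1121) at 946 bp upstream. A replicate 2 peak of 132 (rank 411) covered the pooled summit, but its own summit lay 1066 bp upstream and so outside the window. The pooled summit falls in the non-coding RNA gene C24F3.7 and is nearer to the 5' end of another coding gene, C24F3.2, at 297 bp upstream.

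Among genes for signal peptidase, only *spcs-2* had an IDR summit, with 149.5 in the pooled list (rank 1096), 76.64 in replicate 2 (rank 1311) and 72.15 in replicate 3 (rank 1011), 127 bp upstream. The same summit is 248 bp upstream of *mrg-1*, which encodes a chromodomain protein. *spcs-1* had 35.33 in the pooled list, 19.04 in replicate 2 and 17.26 in replicate 3. The catalytic subunit gene *sec-11* had 30.69 in the pooled list and 22.81 in replicate 3, with no summit in its window in replicate 2. *spcs-3* had a summit in its window in the replicate 2 list only, at 35.94. It is the second gene of a same-strand pair behind K12H4.5, whose own promoter held a peak of 557.8 (rank 27) at 507 bp upstream of K12H4.5. This peak lies 1037 bp upstream of *spcs-3*, just past the edge of its window.

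**Figure D2:**
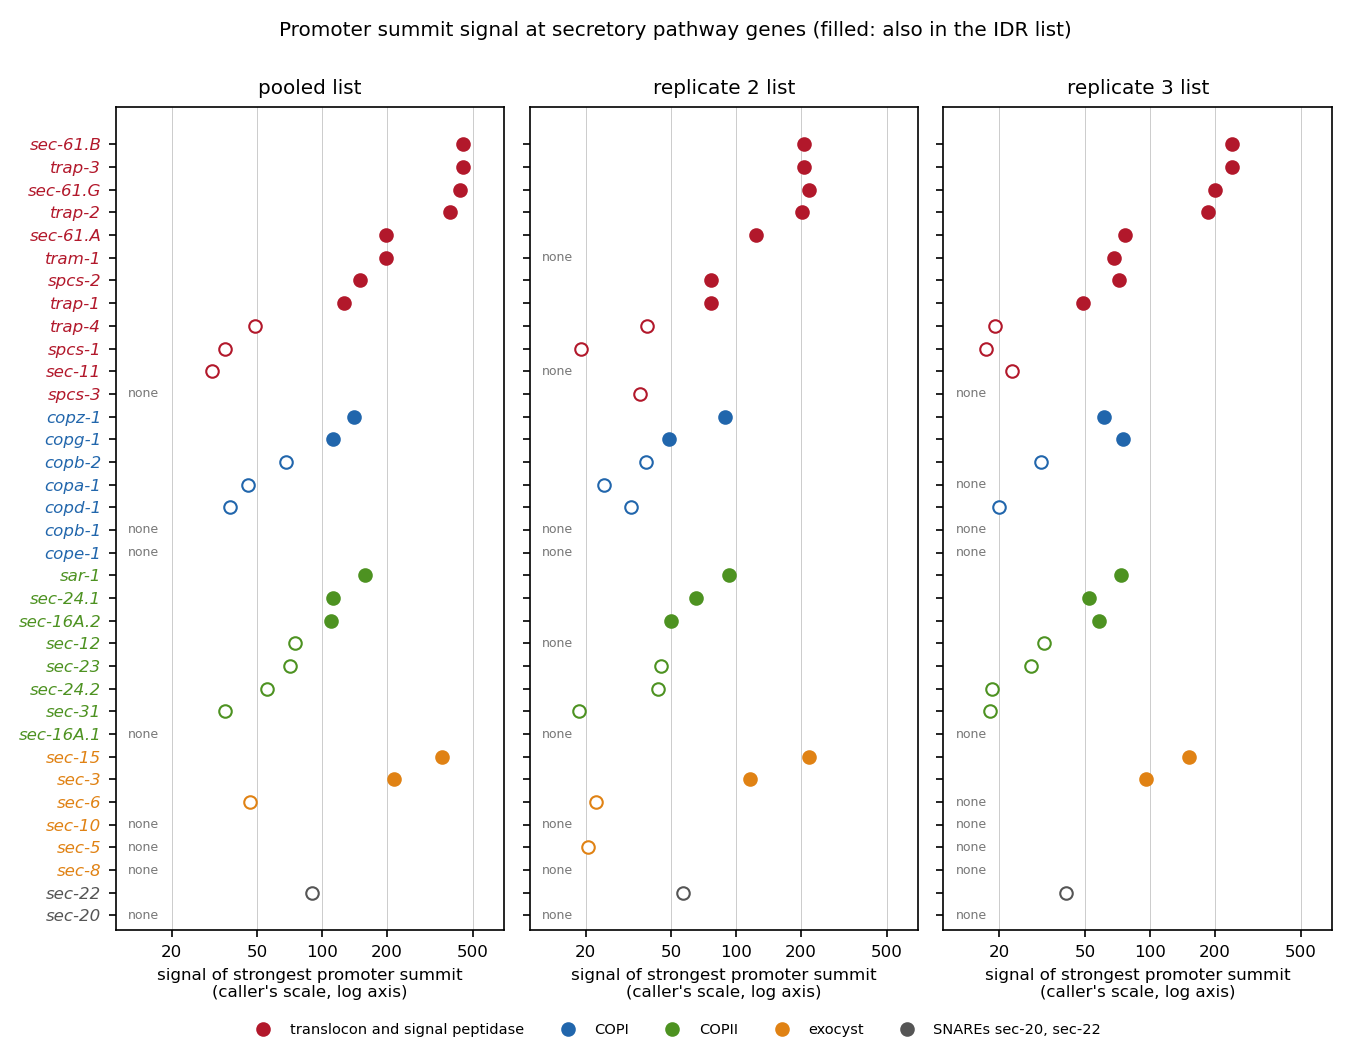
Signal of the strongest promoter summit of each of the 35 genes in the pooled, replicate 2 and replicate 3 lists, on the caller's scale with a log axis; filled points are genes with an IDR summit and "none" marks a gene with no summit in its window. Among translocon genes the pooled signal runs from 30.69 at sec-11 to 451.2 at sec-61.B and trap-3.

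COPI is a coat of 7 subunits, and 2 of the 7 genes held an IDR summit. *copz-1*, for the zeta subunit, had 140.5 in the pooled list (rank 1213), 88.34 in replicate 2 (rank 996) and 61.02 in replicate 3 (rank 1439). Its summit lies 143 bp upstream, slightly nearer to the divergent cyclophilin gene *cyn-4*, of which it is 125 bp upstream. *copg-1*, for the gamma subunit, had 112.1 in the pooled list (rank 1779), 48.72 in replicate 2 (rank 3114) and 75.05 in replicate 3 (rank 932), at 366 bp upstream. The replicates thus differed for *copg-1*, which was outside the 2268 strongest peaks of replicate 2 and well inside those of replicate 3.

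The other COPI genes were weak or had no summit. *copb-2* (beta prime subunit) had 67.86 in the pooled list, 38.01 in replicate 2 and 31.26 in replicate 3, and *copd-1* (delta) had 37.38, 32.36 and 19.82. *copa-1* (alpha) had 45.4 in the pooled list and 24.26 in replicate 2, with none in replicate 3. *copb-1* (beta) and *cope-1* (epsilon) had no summit in their windows in any of the 4 lists.

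In the COPII class, the gene for the small GTPase that starts coat assembly, *sar-1*, had the highest signal, with 157.1 in the pooled list (rank 994), 92.54 in replicate 2 (rank 924) and 73.47 in replicate 3 (rank 971). Its summit lies 331 bp upstream and in no other coding gene's window. *sec-24.1*, for a cargo-binding subunit of the inner coat, had 112.1 in the pooled list (rank 1777), 65.12 in replicate 2 (rank 1786) and 52.13 in replicate 3 (rank 1983). This summit is 148 bp upstream, within the non-coding RNA genes F12F6.13 and F12F6.14. *sec-16A.2*, for a protein of the sites where COPII vesicles form, had 109.5 in the pooled list (rank 1865), 49.67 in replicate 2 (rank 3003) and 58.21 in replicate 3 (rank 1573), 297 bp upstream. Both *sec-24.1* and *sec-16A.2* were in the weaker part of the IDR list, past rank 1134, its midpoint.

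The genes that share the names of *sec-24.1* and *sec-16A.2* but for the final number had no IDR summit. *sec-24.2* had 55.49 in the pooled list, 43.45 in replicate 2 and 18.55 in replicate 3, and *sec-16A.1* had no summit in any list. *sec-12*, whose product loads Sar1 with GTP, had 74.65 in the pooled list and 32.15 in replicate 3 but none in replicate 2. *sec-23*, for the partner of Sec24 in the inner coat, had 71.03, 44.56 and 28.14 in the pooled, replicate 2 and replicate 3 lists. *sec-31*, for the outer coat, had 35.36, 18.72 and 18.18.

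For the exocyst, 2 genes had strong summits in their windows and the other 4 had weak ones or none. *sec-15*, whose yeast counterpart binds a Rab GTPase on the vesicle, had 357.5 in the pooled list (rank 128), 217.5 in replicate 2 (rank 94) and 152.2 in replicate 3 (rank 163). Its summit lies 345 bp upstream of *sec-15*, in the 5' untranslated region of the divergent gene C28G1.2, 44 bp inside that gene, and 53 bp from the tRNA gene WBGene00022947. *sec-3*, whose yeast counterpart binds the plasma membrane, had 216.2 in the pooled list (rank 482), 115.9 in replicate 2 (rank 565) and 96.14 in replicate 3 (rank 547), 194 bp upstream and in no other coding gene's window. *sec-6* had 45.99 in the pooled list and 22.47 in replicate 2, and none in replicate 3. A stronger replicate 2 peak of 105.9 (rank 684) covered the pooled summit of *sec-6*. Its own summit lay 1086 bp upstream and so outside the window. *sec-6* follows *bmy-1* on the same strand, whose promoter held a peak of 220 (rank 468) that lies 1137 bp upstream of *sec-6*. *sec-5* had 20.56 in replicate 2 only, and *sec-8* and *sec-10* had no summit in any list.

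Of the SNARE genes, *sec-22* came closest to the IDR list. Its signal was 89.72 in the pooled list (rank 2659), 56.74 in replicate 2 and 40.59 in replicate 3, just under the lowest IDR signal of 97.88, while *sec-16A.2* at 109.5 was the lowest member within the list. *sec-20* had no summit in any list. In all, 20 of the 35 genes had no IDR summit, of which 12 had one in the pooled list, 2 (*spcs-3* and *sec-5*) in replicate 2 only, and 6 in none of the 4 lists.

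All 15 genes with an IDR summit were within the 2268 strongest peaks of replicate 3 when the peak covering the pooled summit was used, and 13 were within those of replicate 2, the exceptions being *copg-1* and *sec-16A.2*. The ratio of replicate 2 to replicate 3 signal had a median of 1.21 over these 15 genes and ran from 0.649 at *copg-1* to 1.93 at *tram-1*. Over 2218 IDR peaks covered in both replicates the median was 1.18. Each list has its own scale, so the members' ratios are read only against this median. Both replicates enter the IDR list, so their likeness there is in part a condition of being listed.

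**Figure D3:**
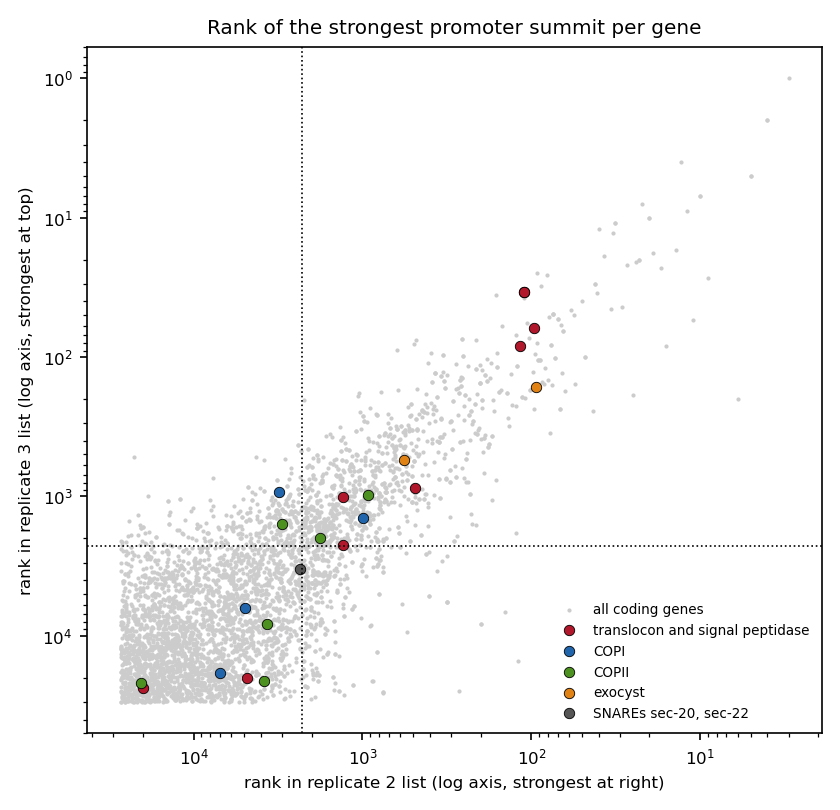
Rank of each gene's strongest promoter summit in replicate 2 (horizontal) and replicate 3 (vertical), log axes with the strongest at the upper right; grey points are all coding genes with a summit in both lists and dotted lines mark rank 2268. The points for trap-3, sec-61.B, sec-61.G, trap-2 and sec-15 lie in the upper right, with ranks of 94 to 117 in replicate 2 and 34 to 163 in replicate 3; trap-3 and sec-61.B share a point.

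Summits lay upstream of the gene in 14 of the 15 cases (93.3%), at a median of 263 bp upstream, against 94.1% and 277 bp over all coding genes with an IDR promoter summit. Between 100 and 400 bp upstream lay 12 of the 15 (80.0%), against 50.1% over all such genes; this band was set after the members' distances had been seen, so the difference is no finding. By gene, the summit was in no annotated gene for 9 of the 15 and in non-coding RNA genes for 4, of which *sec-61.B* and *trap-3* share a summit. It was in 5' untranslated regions for 2 and in coding sequence for 0. The same split was not made over all IDR promoter summits, so it describes the members only. Annotated 5' ends of worm genes often mark a trans-splice site or a start codon rather than the start of transcription, so these distances are to the annotation.

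**Figure D4:**
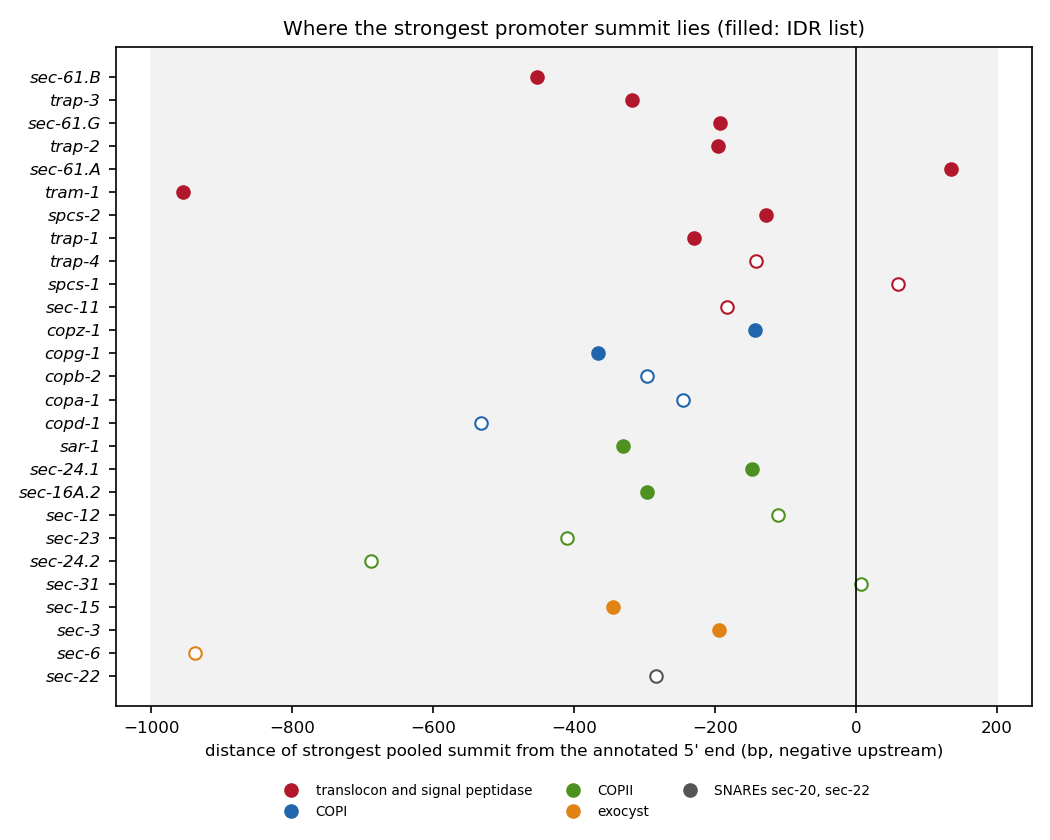
Distance in bp of the strongest pooled promoter summit from the annotated 5' end, negative upstream, for the 27 genes with one; filled points are in the IDR list. Points run from 955 bp upstream at tram-1 to 135 bp downstream at sec-61.A.

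Many of these peaks could belong to a neighbouring gene as well. In 10 of the 15 genes the summit also fell in the promoter window of another coding gene. The count of 10 was not made over all coding genes with an IDR summit, so it describes the members only. In 4 (*sec-61.B*, *tram-1*, *copz-1* and *sec-15*) the 5' end of another coding gene was nearer. The summits of *trap-1*, *sar-1*, *sec-16A.2*, *sec-24.1* and *sec-3* were in no other coding gene's window. Outside the IDR list, the pooled summits of *sec-22*, *sec-23*, *sec-24.2*, *copa-1* and *sec-6* were also nearest to another coding gene's 5' end. That of *sec-22* lay 21 bp inside *stau-1*, and that of *sec-24.2* 62 bp upstream of *ccr-4*. With each summit given only to the nearest coding 5' end, the members counted fell from 15 to 11 of the 35. All coding genes counted fell from 1418 (7.10%) to 1062 (5.32%). Divergent arrangement, with an oppositely transcribed coding gene within 1000 bp upstream, held for 14 of the 35 genes (40.0%), of which 7 had an IDR summit, and for 18.6% of all coding genes, of which 15.5% had one. Tandem arrangement, behind a coding gene on the same strand within 500 bp, held for 11 members, of which 3 had an IDR summit, against 4.35% of all tandem coding genes.

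By chromosome, IDR summits were at 7 of 11 members on IV, 4 of 5 on X, 1 of 7 on III, 1 of 6 on I, 1 of 4 on II and 1 of 2 on V. Over all coding genes the share ran from 4.87% on V to 9.94% on I. Chromosomes IV and X thus held 11 of the 15 genes with a summit; their shares over all coding genes, 6.16% and 7.03%, were close to the 7.10% over the genome.

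Short sequences known from transcription factor binding sites were then looked for. ACGTG is the core of sites bound by basic leucine zipper factors of the unfolded protein response, including XBP-1, and TGACGTGG is a longer form; CCACG is found in the mammalian endoplasmic reticulum stress element, CACGTG is the E-box and TGATAA is a GATA site. In the 300 bases from 250 upstream to 50 downstream of the annotated 5' end, 18 of the 35 genes (51.4%) held ACGTG on either strand, against 27.6% of all coding genes. By class these were 7 of 8 COPII genes, 5 of 7 COPI genes, 4 of 12 translocon genes, 0 of 6 exocyst genes and both SNARE genes. CCACG, which overlaps ACGTG where the letters CCACGT occur, was in 15 (42.9% against 21.7%), and CACGTG, which contains ACGTG, in 5 (14.3% against 5.82%). TGATAA was in 7 (20% against 30.2%).

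The longer TGACGTGG, which contains ACGTG, occurred in 3 of the 35 promoters (8.57%) and in 0.886% of all coding promoters. All 3 are coat genes, and the sites are given here with 11 bases on each side on the strand of the gene, capitals marking the site, in build ce11. That of *copz-1* (chrII:10872791-10872820, plus) starts 77 bases before the 5' end, that of *sec-31* (chrIV:11371791-11371820, minus) 17 bases before it and on the opposite strand, and that of *cope-1* (chrIII:13426258-13426287, plus) 5 bases after it.
copz-1: tcattgactatTGACGTGGattatcttgtt
sec-31: ctctcattcatCCACGTCAacgttacagct
cope-1: atattttgaagTGACGTGGtgaatttttca

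The core was searched for from 250 bp upstream to 50 bp downstream, but summits from 1000 bp upstream to 200 bp downstream. Some IDR summits, such as that of *tram-1* at 955 bp upstream, lay outside the stretch searched for the core, and others inside it. Of the 18 members with ACGTG in the promoter 5 had an IDR summit, and of the 17 without it 10 did. Over all coding genes the shares were 7.18% with and 7.07% without, and the difference among the members was not tested. *cope-1* had no summit in any list. The strongest pooled summit of *sec-31*, at 35.36, lay 7 bp downstream of the 5' end, close to its TGACGTGG site. That of *copz-1* lay 143 bp upstream, on the far side of its site from the gene. Peaks of the pooled list had a median width of 456 bp, and whether these peaks cover the sites was not tested. The order of the classes by this core, COPII then COPI then translocon then exocyst, was unlike their order by peaks, which the translocon genes led. This split by class was seen after the motif had been searched for and is given as a description.

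**Figure D5:**
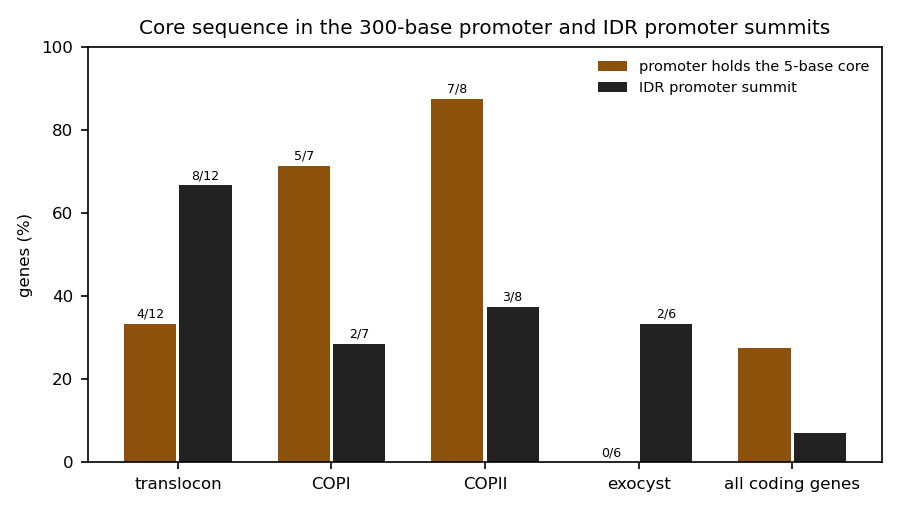
Percentage of genes whose 300-base promoter holds the 5-base core ACGTG (brown) and percentage with an IDR promoter summit (black), by class, with counts over the bars of the 4 classes. COPII genes have the core in 7 of 8 promoters and IDR summits at 3 of 8, translocon genes the core in 4 of 12 and IDR summits at 8 of 12.

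At the summits themselves, within 101 bases, ACGTG was in 1 of the 14 distinct members' windows (*sar-1*, 7.14%), against 15.5% of all IDR windows and 8.42% of windows 600 bp to either side. CCACG was in 3 (*copg-1*, *copz-1* and *spcs-2*, 21.4%), against 18.7% and 8.55%. TGACGTGG, CACGTG and TGATAA were in 0 of the 14, against 0.441%, 4.94% and 3.13% of all IDR windows. Of 8 motifs searched, 3 were added after these peaks had been looked at: the word CTGCGTC, the repeat GAGAGA and the word GGTTCGA, the last being part of the B box of tRNA genes. CTGCGTC was in 3 member windows (21.4%), those of *sec-61.G*, *tram-1* and *sec-24.1* printed above, against 11.5% of all IDR windows and 0.86% of the flanking ones. GAGAGA was in 3 (*sec-15*, *sec-16A.2* and *sec-61.G*, 21.4%), against 30.4% and 5.71%, and GGTTCGA was in 0, against 3.48% and 0.419%. CTGCGTC and GAGAGA had been picked by ranking words at IDR summits against flanks and by looking at the members' windows. Their shares against the flanks and in the members therefore follow in part from that choice and are no finding. A single window is 7.14% of the 14, and the differences from all IDR windows were not tested. Median G+C was 52% over the members' windows, 48.5% over all IDR windows and 34.7% over the flanking ones.

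Other genes of the pathway, listed by function and outside the name rule, gave 19 of 67 (28.4%) with an IDR promoter summit, again against 7.10% of all coding genes. The 4 sensors and effectors of the unfolded protein response all had one: *atf-6* at 401.8 in the pooled list (191.3 in replicate 2 and 205.7 in replicate 3), *xbp-1* at 288.5 (159.9 and 136.6), *ire-1* at 122.1 (60.47 and 42.56) and *pek-1* at 114.3 (63.78 and 55.51). Of 9 genes for folding in the endoplasmic reticulum 5 had one, namely *hsp-3* at 474 (rank 44), which encodes a BiP chaperone, the calreticulin gene *crt-1* at 269.1, and the disulfide isomerase genes *pdi-6* at 264.1, *pdi-3* at 258.9 and *pdi-2* at 148.7. The other BiP gene, *hsp-4*, which the unfolded protein response is known to raise, had 35.83 in the pooled list, 21.85 in replicate 2 and 16.69 in replicate 3. At rank 16062 of the pooled list *hsp-4* was close to that list's median signal of 37.04, while *hsp-3* was among its strongest peaks.

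Elsewhere in the pathway the counts were lower. Among 7 secretory Rab GTPases, which direct vesicles to their targets, 3 had an IDR summit (*unc-108*, the worm Rab2, at 186.7, *rab-11.1* at 164.2 and *rab-1* at 136.7), and among 7 further SNARE and docking genes 2 did (*syx-5* at 171.1 and *nbet-1* at 125.7). Cargo receptors gave 2 of 11, *ile-2* at 392.5 through the peak it shares with *trap-2*, and *erd-2.1* at 118. The oligosaccharyltransferase, which adds sugars to entering proteins, gave 1 of 5 (*dad-1* at 213.8) and the Golgi tethers 1 of 17 (*cogc-2* at 111, 5.88%). None of the 3 other coat genes or the 2 other exocyst genes on the lists had one, and the nearest of these was *exoc-7*, at 93.85 in the pooled list. Sharing of summits with neighbouring coding genes was not worked out over all these lists. In both replicates *syx-5* shared its strongest promoter peak with F55A11.1, *rab-1* with C39F7.5 and *cogc-2* with *klp-18*.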

How the data were processed

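The deposited peak lists (the 2 replicates, the pooled list and the IDR list, on build ce11 per the file headers) were used as given. Per the file headers, replicates 2 and 3 and their pool were each called against 1 control alignment, which was not used here. For the caller, the aligner and the cutoff on IDR, the sources used here give nothing. The authors' signal per peak is a score of unstated scale. It was compared only within a list, except in the ratios of replicate 2 to replicate 3 signal. The deposited significance is a −log10 q-value. The summit offset was also deposited and is counted from 0. Depth is unknown, since peak lists hold no read totals. Python 3.11.15 assigned summits to Ensembl genes on WBcel235 (the same assembly as ce11), which was tested on simulated peaks, and sequences came from the RefSeq copy of that assembly.

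Genes were named as follows: every member, and of the other lists those with an IDR summit, plus *hsp-4* and *exoc-7*, chosen after their values were seen. Members, lists, motifs and arrangement classes were chosen with earlier results of these data known. CTGCGTC and GAGAGA came from a ranking of 6-base words at IDR summits against flanks and from looking at the members' windows. No list was tested for enrichment. The result of 1 pathway list, counted in the total over these lists, is not reported here.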

Additional observations from a re-analysis of the deposited data

How the results depend on the processing

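Of 60 counts recomputed under alternatives, for all members and the 4 main classes, 52 stayed within 1.5 times the reported count, 5 were lower and 3 higher. Using the 2268 strongest peaks of a single replicate gave 15 members without replicate 2 (6.83% of coding genes, against 7.10% as reported) and 12 without replicate 3 (7.04%), which lost *copg-1*, *sec-16A.2* and *tram-1*; COPI then ranged from 1 to 2. The stronger 1134 IDR peaks kept 10 members (3.84% of coding genes), with COPI at 0 and COPII at 1. Every peak of the pooled list gave 27 members (35.3%), with COPI at 5 and COPII at 7. Giving each summit to the nearest coding 5' end left 11 members (5.32%), with COPI at 1 and exocyst at 1. A window of 500 bp upstream and 100 bp downstream gave 13 members (5.35%), without *sec-61.A* and *tram-1*, and one of 2000 and 500 bp gave 18 (9.67%), adding *copb-1*, *sec-6* and *spcs-3*. Counting the first gene of a same-strand run, an alternative chosen after seeing the data, gave 17, while the share of all coding genes rose to 9.72%. The translocon count stayed within 1.5 times under each of these alternatives, from 8 of 12 genes as reported to 11 in the pooled list. As the class holds only 12 genes, its count could not have been called higher under this rule. No paired analysis was possible because there is 1 group. Limits are the 2 replicates, the unknown depth and the lack of a second condition.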
